A study of Mus musculus with 2 samples.

Results

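In the left cerebral cortex of adult mice, 97 genes had most of their RNA assigned to transcripts that the annotation types as targets of nonsense-mediated decay. They were chosen by measured values. For each gene, the deposited percentages of gene TPM in decay transcripts were summed, and a sum over 50% in both libraries was required, together with a gene level of 5 TPM or more in both. TPM is a length-scaled share of all transcripts, and the summed percentage is called the decay share below. Of 55536 annotated genes, 10870 reached 5 TPM in both libraries, and 3083 of these had at least 1 annotated decay transcript. The rule allowed up to 150 genes, a limit that was not reached, and it set aside symbols starting with Srsf or Tra2, of which 0 passed. By annotated type, 96 members are protein-coding genes and 1, Hyi, is a polymorphic pseudogene.

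The samples were 2 libraries of total RNA, 1 from each of 2 female B6CASTF1/J mice aged 8 to 10 months, a hybrid of the strains C57BL/6J and CAST/EiJ. The labels name animal 1 for replicate 1 and animal 5 for replicate 2, although they give both the same donor entry. Each library started from 300 ng of RNA depleted of ribosomal RNA, with ERCC spike-in transcripts added. They form 1 untreated group, with no contrast and no sample in which decay was blocked, so every value is a steady-state level and no test between groups was possible. The libraries held 28327434 and 30234441 expected counts. Markers of the tissue were present, from Slc17a7 of excitatory neurons at 470 TPM and Gad1 of inhibitory neurons at 247 TPM to Slc1a2 of astrocytes at 825 TPM and Mbp of oligodendrocytes at 917 TPM. Liver markers were at or near 0, with Alb at 0.12 TPM. The listed markers of striatal neurons were present too, with Ppp1r1b at 294 TPM, Drd1 at 43.2 TPM and Adora2a at 37 TPM. Their bearing on the members was not tested. These are bulk samples, so more cells of a type and more RNA per cell cannot be told apart.

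Nonsense-mediated decay removes messenger RNAs on which translation stops too early. During splicing an exon junction complex is left close to each junction, and a ribosome that ends at a stop codon well upstream of the last junction leaves such a complex in place. The helicase UPF1 then joins the release factors, is phosphorylated by SMG1, and brings in the nuclease SMG6 and adaptor proteins such as SMG5. Transcripts are typed as decay targets from this geometry, not from a measured half-life. Cells use the route both to clear splicing errors and to lower the output of a gene by alternative splicing, and neurons are known to set the level of several genes that way.

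How such transcripts differ from coding ones is shown first in 5 members, with GENCODE M21 sequence on mm10. Members and transcripts shown were picked after their values were seen, from the abundant ones of each kind plus Bak1. In each pair below, the decay transcript and the closest coding transcript start at the same ATG. Lower case marks the last shared bases of the frame, and capitals mark the stretch from the first differing base on.
Bak1-201, decay: gatcgcctccagGCCAGCAGCAACATGCAC
Bak1-202, coding: gatcgcctccagCCTATTTAAGAGTGGCAT
Glo1-201, decay: tcttggactgacGTGCTTGCAGACAGCAAC
Glo1-206, coding: tcttggactgacCCTCCTGCAGAAGCTTGA
Prdx6-208, decay: cctgggagattcGACATCAATGCTTACAAT
Prdx6-202, coding: cctgggagattcATGGGGCATTCTCTTTTC
Slc25a12-207, decay: aaccaaggatggAAAATGTCAAGGAGATTT
Slc25a12-206, coding: aaccaaggatggGTTGATCTCCTATCAAGA
Ppia-201, decay: gtctccttcgagGTCGGCTGTTTGCAGACA
Ppia-202, coding: gtctccttcgagCTGTTTGCAGACAAAGTT
Bak1 and Glo1 gain an exon, Prdx6 and Slc25a12 lose one, and Ppia uses another splice site. Counted from the A of the ATG, the frames part at base 345 in Bak1, 168 in Glo1, 96 in Prdx6 and 70 in Ppia. In Ppia the decay frame holds 5 bases that no coding transcript of the gene has, and then runs on in the coding bases out of register.

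The same decay frames end as follows, with the stop codon in capitals, and 2 members that keep a coding stop are set beside them.
Bak1-201: tggccctgtacgtctaccagcgtggttTGA
Glo1-201: tcctgcagaagcttgacttccctgctaTGA
Prdx6-208: tcgagaaggacgctaacaacatgcctgTGA
Slc25a12-207: gactattatccatcaccacatccctttTAA
Ppia-201: caaagacagcagaaaactttcgagctcTGA
Atp2a2-203: actaactttagcgatatgttctggtctTGA
Mobp-204: aggagcaggtcaaccccaaggaagaagTGA
The stop of Ppia-201 lies at chr11:6418241-6418243 on the plus strand, 17 codons after the frames part. That of Bak1-201 lies at chr17:27021256-27021258 on the minus strand, 37 codons after. Glo1-201 stops at chr17:30600148-30600150 on the minus strand and Prdx6-208 at chr1:161244207-161244209 on the minus strand, 54 and 45 codons after. Atp2a2-203 and Mobp-204 end at a stop that a coding transcript of the gene also uses, at chr5:122457151-122457153 on the minus strand and chr9:120173188-120173190 on the plus strand. In these 2 it is an extra splice after the stop that puts the transcript in the decay class.

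Across the 97 members the median decay share was 64.1% (SD of the 2 library medians 0.948), 64.9% in replicate 1 and 63.5% in replicate 2. The other 2986 genes with a decay transcript had a median of 4.03%. Since the rule used this share, it is a description and was not tested. Between 50 and 60% lay 32 members, between 60 and 70% 35, between 70 and 80% 14, and 16 were at 80% or more. Coding transcripts held a median of 25.5% of a member's TPM and transcripts with a retained intron 2.03%, against 78.0% and 7.55% in the other genes. The rule leaves under 50% to all other types, so lower shares of these largely follow from it, and nothing is read from them. The members just inside the threshold were Ptprg, at 50.4% and 50.8%, and Rpe, at 50.4% and 62.8%, and just outside were Gm38394, at 50% in both libraries, and Ptov1, at 54.9% and 49.7%. In all, 52 genes passed in 1 library and not in the other.

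**Figure D1:**
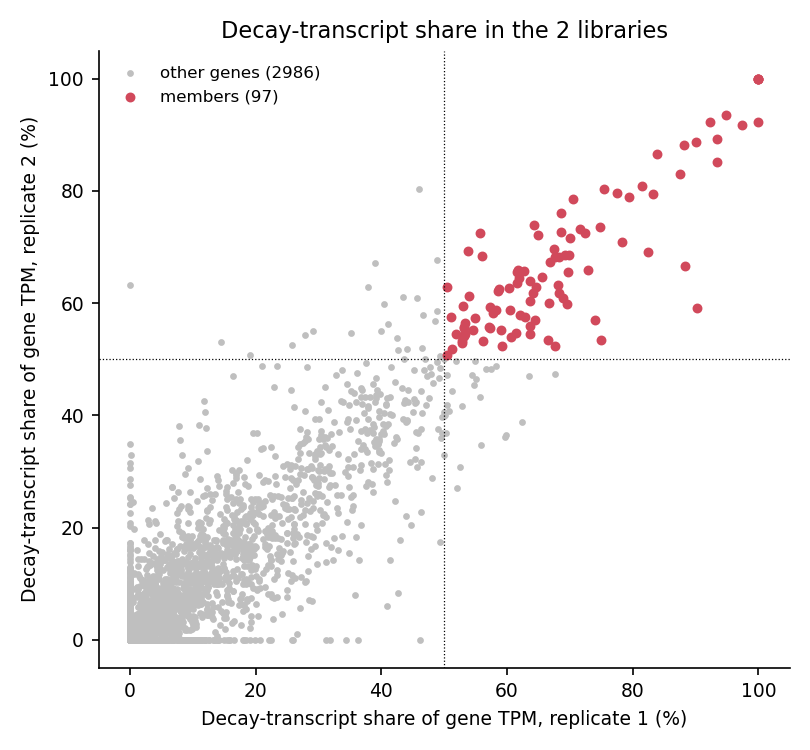
Decay share of gene TPM (%) in replicate 1 (horizontal) and replicate 2 (vertical) for genes at 5 TPM or more with a decay transcript; red points are the 97 members, grey points the other 2986 genes, and dotted lines mark 50%. Members fill the upper right square, which the rule defines, and 52 further genes lie over 50% in 1 library only.

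The members' median gene level was 22.6 TPM (21.8 and 22.6 in the 2 libraries), beside 22.9 TPM for all 10870 genes. The range ran from Trmt11, a tRNA methyltransferase, at 5.76 TPM to Ppia at 786 TPM, with 24 members at 50 TPM or more and 6 at 200 or more in both libraries. Decay transcripts took 2.99 and 3.08 of every 100 TPM in coding and decay transcripts together. The members carried 27.6% and 26.4% of all decay TPM, and Ppia alone 5.12% and 4.60%. Eif4a2, at a decay share of 45.2% and 42.9%, was the most abundant source of decay TPM outside the group.

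Ppia encodes cyclophilin A, a peptidyl-prolyl isomerase that is among the commonest proteins of the cytosol. The gene (chr11:6415443-6419817, plus strand) stood at 821 TPM in replicate 1 and 751 TPM in replicate 2. Its only decay transcript, Ppia-201, took 83.9% and 86.6% of that, and its coding transcripts 1.02% and 1.35%. The deposited credibility intervals, whose level is not stated, ran from 643 to 681 TPM and from 608 to 644 TPM for Ppia-201, and from 5.02 to 10.9 and 6.98 to 13.3 TPM for the coding Ppia-202. The intervals lay far apart in both animals. Only 5 bases and 1 junction set Ppia-201 apart from the coding transcripts, and its support level is 5, the weakest grade of evidence in the annotation. The gene's expected count is a whole number in replicate 2 but not in replicate 1, where some reads were shared with other loci. Mouse has many processed copies of Ppia, and their part in this value was not tested.

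Ndufa3 and Ndufs4 encode subunits of mitochondrial complex I. Ndufa3 stood at 269 and 275 TPM with decay shares of 94.9% and 93.6%, and its coding transcripts held 4.33% and 5.45%. Ndufs4 stood at 73.7 and 74.6 TPM with decay shares of 79.4% and 78.9%. The authors deposited a second table of transcript estimates beside the first. In it the shares were 98.0% and 98.9% for Ndufa3 and 88.7% and 87.5% for Ndufs4. Both genes were thus over 50% by either set of estimates, which come from the same reads. Ndufa3-204, the leading decay transcript of Ndufa3, has support level 5. Only 10 bases and 1 junction set it apart from the coding transcripts. Ndufs4-204, that of Ndufs4, has no support level, and the start of its frame was not found. Slc25a12, the mitochondrial aspartate-glutamate carrier of neurons, had shares of 68.8% and 61.0%, which became 66.8% and 45.8% in the second table. Sdhaf2, an assembly factor of succinate dehydrogenase, had 56.0% and 68.5%, and 40.2% and 47.6% in the second table, under 50% in both libraries.

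Atp2a2, the calcium pump of the endoplasmic reticulum, had the most reads of any member, with a mean of 31151 counts. It stood at 338 and 333 TPM, and Atp2a2-203 took 62.8% and 65.8% of it. That transcript has the same frame of 3132 bases as the coding Atp2a2-201, followed by a junction 1258 bases beyond the stop. In the second table the shares were 37.7% and 42.3%, below 50% in both libraries. Mobp, a basic protein of myelin, showed the same pattern. Its decay share was 60.5% and 58.7% by the first table and 47.2% and 45.2% by the second. Mobp-204 repeats the coding frame of 243 bases of Mobp-202 and has 2 exons after the one with its stop.

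Members among the genes for cytosolic ribosomal proteins included Rpsa and Rpl12. Rpsa, also known as the laminin receptor, stood at 219 and 199 TPM with shares of 77.4% and 79.6%. Rpl12 stood at 64.5 and 54.3 TPM with shares of 68.2% and 61.8%. In the second table both were under 50%, at 32.3% and 33.5% for Rpsa and 31.5% and 24.2% for Rpl12. Counts of both genes are not whole numbers in either library, so reads were shared with other loci, and the part of their processed copies was not tested. The 16 cytosolic ribosomal protein genes with a decay transcript that are not members had a median share of 0.865% by the first table. By the second table Rpl27a (79.4% and 80.3%), Rpl14 (46.6% and 51.2%) and Rpl6 (39.2% and 39.6%) of these stood above both Rpsa and Rpl12. The rest stood below both. Of the mitochondrial ribosome, Mrps14 (88.1% and 88.2%), Mrpl32 (75.5% and 80.4%) and Mrpl13 (66.5% and 53.4%) were members. In the second table they stood at 48.1% and 69.6%, 72.4% and 78.4%, and 61.6% and 50.2%. By expected counts Mrps14 was at 63.4% and 61.5%, Mrpl32 at 42.1% and 46.2%, and Mrpl13 at 52.4% and 37.3%.

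Signalling and membrane genes made up a further group. Ppp1cb, a catalytic subunit of protein phosphatase 1, stood at 215 and 201 TPM with decay shares of 57.8% and 58.3%. Cbarp, a regulator of voltage-gated calcium channels, stood at 170 and 156 TPM with shares of 53.3% and 54.5%. Tspan5, a tetraspanin that guides the protease ADAM10, stood at 127.7 and 123.3 TPM with shares of 68.3% and 68.3%. Cyth2, an exchange factor for ARF proteins, had shares of 57.1% and 55.8%, and Slc4a3, an anion exchanger, 64.6% and 62.9%. In these genes the animals differed by 1.70 points or less. Lgi1, a secreted synaptic protein mutated in an inherited epilepsy, had shares of 66.8% and 67.3%. Over all 3083 genes 3.15% were members. By symbol, 5 of 72 kinase and phosphatase genes with a decay transcript were members, 4 of 127 transporter and channel genes, 1 of 100 membrane traffic genes and 2 of 91 ubiquitin and proteasome genes. Of nuclear and gene expression classes, members were 2 of 100 splicing and RNA-binding genes, 2 of 65 zinc finger genes, 1 of 81 chromatin and transcription genes, 6 of 39 ribosomal protein genes and 0 of 32 translation factor genes. Mitochondrial genes gave 4 of 49. These counts are small, and no enrichment was tested.

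Members also came from redox, lipid and autophagy pathways. Prdx6, a peroxiredoxin, stood at 194 and 171 TPM with decay shares of 58.6% and 62.1%. Glo1, which detoxifies methylglyoxal, stood at 77.3 and 75.9 TPM with shares of 69.9% and 68.7%, and 61.3% and 58.6% in the second table. Cdipt, which makes phosphatidylinositol, had shares of 61.6% and 65.6%. Becn1, a core protein of autophagy, stood at 89.2 and 84.1 TPM with shares of 61.5% and 63.5%, against 41.6% and 44.0% in the second table. Hnrnpu, an RNA-binding nuclear scaffold protein, stood at 162 and 198 TPM with shares of 60.7% and 54.0%, and 41.2% and 33.8% in the second table. Its leading decay transcript is tagged as a readthrough. Prpf4b, a kinase of the spliceosome, had 54.5% and 55.1%, and 64.1% and 65.5% in the second table.

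**Figure D2:**
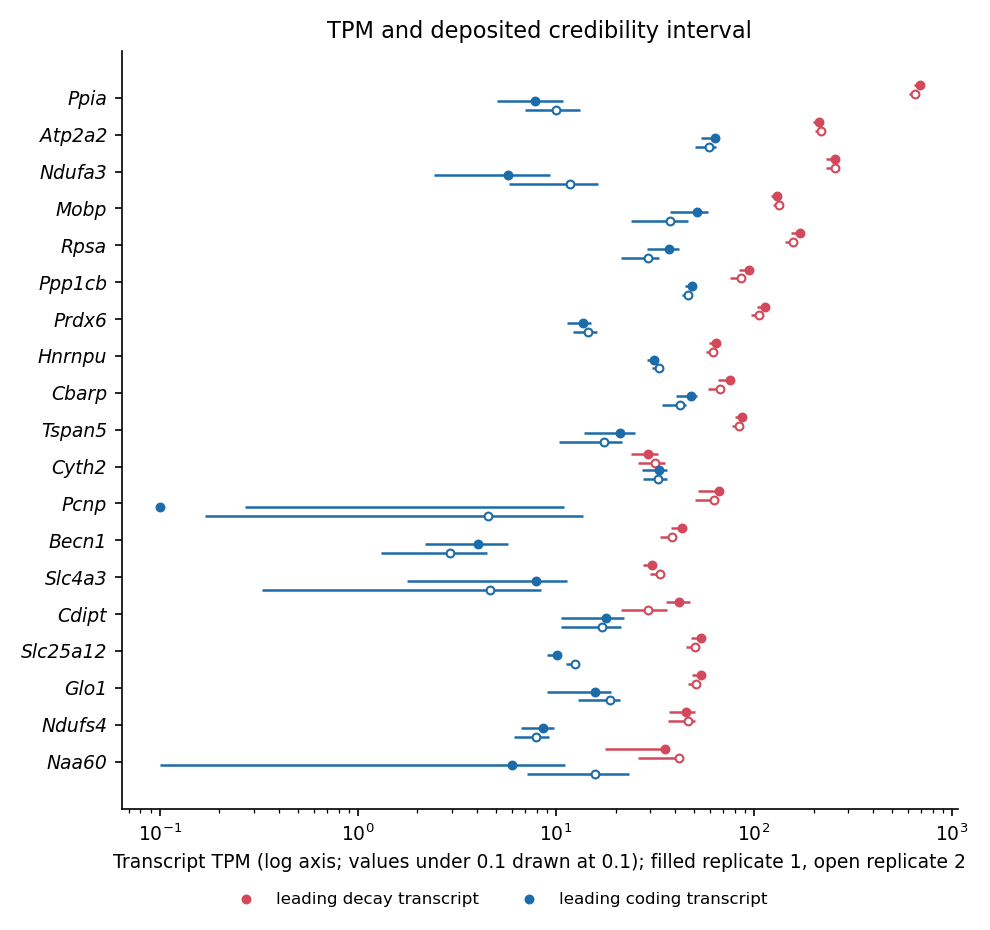
TPM on a log axis of the leading decay transcript (red) and the leading coding transcript (blue) of 19 of the 20 members with the highest gene TPM, with filled points for replicate 1, open points for replicate 2 and lines for the deposited credibility interval. In 18 of the 19 the decay interval lies to the right of the coding interval in both libraries, while the intervals overlap in both libraries of Cyth2. The rule chose members by a high decay share, so this order largely follows from it.

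For 92 members the single transcript with the highest share was a decay transcript, as it was for 4.45% of the other genes. In 66 members the leading decay transcript alone exceeded 50% in both libraries. The interval of the leading decay transcript lay above that of the leading coding transcript in both libraries in 61 members, and in 67 in each library alone. Among the other genes 1.24% had this order in both libraries. The rule asked for over 50% in decay transcripts, so these counts largely restate it, and nothing is read from them. Leading decay transcripts stood above their own interval in 10 members in replicate 1 and 7 in replicate 2, Ppia among them, so the deposited TPM and interval are separate estimates. The members had 206 annotated decay transcripts in all, and 41 members had 1. Zdhhc3, an enzyme that attaches palmitate to proteins, had 8, and its share was 81.6% and 81.0%.

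Bak1 was near the top by share. It encodes a pore-forming protein of apoptosis, and a small exon that neurons include is known for it. Bak1-201 contains 20 bases that no coding transcript of the gene has. The gene stood at only 6.66 and 6.78 TPM, of which decay transcripts took 100% and 92.3%. In the second table the shares were 81.7% and 54.5%, over 50% in both but far apart. Other members above 80% in both libraries included Rnf114, a ubiquitin ligase, at 93.4% and 85.2%; Mnat1, part of the kinase complex of transcription factor TFIIH, at 92.3% and 92.2%; Adhfe1, an iron-dependent dehydrogenase, at 93.4% and 89.2%; and Acd, a telomere protein, at 90.2% and 88.7%. Mnat1 changed least of these between tables, with 90.8% and 91.1% in the second table. Syt16, a synaptotagmin-related protein, had 87.6% and 83.0%.

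A share of 100% in both libraries belonged to 4 members, Gm20683, Gm20716, Gm42715 and Gm49325, because no coding transcript is annotated for them. Their leading transcripts are readthroughs that join neighbouring genes on the same strand. Gm20716 spans Dpm1 and Adnp, Gm20683 spans Rhbdl1 and Rhot2, Gm49325 spans Ube2g2 and Sumo3, and Gm42715 overlaps Srcap. Their levels ran from 6.05 ± 0.898 TPM (SD, n = 2) for Gm42715 to 20.3 ± 3.18 TPM for Gm20716, beside 88.9 TPM for Sumo3 and 51.6 TPM for Srcap. They share exons with those genes, so their levels are uncertain. Across the members, 8 overlapped another gene of 5 TPM or more on the same strand, and 20 overlapped one on the opposite strand. Whether reads were counted by strand is not stated in the labels or file headers, so opposite-strand genes may share reads.

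By a second measure, expected counts in place of TPM, the median share was 62.4%, and 66 of 97 members stayed above 50% in both libraries. Over the 3083 genes, 2.85% passed that limit. By the second table's TPM the median was 57.6%, and 62 members exceeded 50% in both libraries, 11 in 1 and 24 in neither, where 3.11% of the 3083 genes exceeded it in both. By the second table's estimated counts only 46 of the 97 members exceeded 50% in both libraries. These estimates come from the same reads, so the agreement is not independent support. By the first table's TPM, its expected counts and the second table's TPM alike, 39 members were over 50% in both libraries. Only members can be among these, since the first of these measures is the rule's own. The second table gave the lower value in 65 members, by more than 20 points in 16, and a value more than 10 points higher in 4. The same decay transcript led in both tables in 86 members, or 88.7%, beside 88.6% of the other genes. Where only 1 decay transcript is annotated, it must lead in both. That held for 42.3% of members and 62.2% of the other genes, so nothing is read from these shares.

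**Figure D3:**
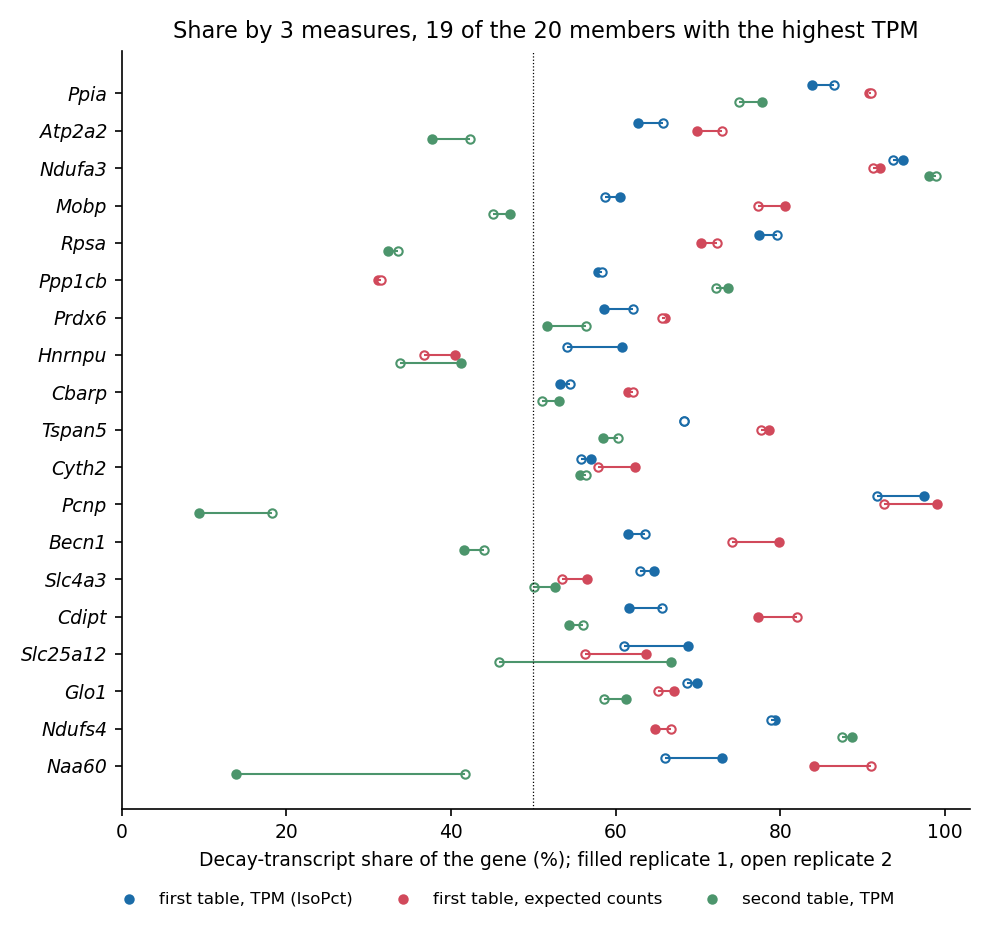
Decay share (%) of 19 of the 20 members with the highest TPM by 3 measures, the first table's TPM (blue), its expected counts (red) and the second table's TPM (green), with filled points for replicate 1, open points for replicate 2 and a dotted line at 50%. Ndufa3, Ppia and Ndufs4 stay to the right of the line by every measure, while the green points of Pcnp, Rpsa and Naa60 lie to its left.

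The largest falls in the second table were in Pcnp, Tgfb1i1, Gm1673, Rpsa, Naa60 and Arf4. Pcnp, a nuclear protein, had shares of 97.4% and 91.8% by the first table and 9.34% and 18.2% by the second. Tgfb1i1, a focal adhesion adaptor, had 63.7% and 55.9% against 2.89% and 5.71%, and Arf4, a small GTPase of the Golgi, 57.4% and 59.3% against 13.1% and 21.7%. Naa60, an acetyltransferase of membrane proteins, went from 72.9% and 66.0% to 13.9% and 41.7%. Its leading decay transcript has no base and no junction that the coding transcripts lack. At the other end, the share of Bcas2, a spliceosome protein, went from 56.1% and 53.2% to 83.3% and 74.4%. Zfp938, Ppp1cb, Fam78b, Prpf4b and Ndufs4 also stood higher in the second table.

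How much sequence separates the transcripts was small in most members and in most of the other genes. The leading decay transcript held a median of 13 bases that no coding transcript of the gene has, against 26 in the other genes. In 40 of the 93 members with a coding transcript, or 43.0%, it held none, beside 40.8% of the other genes. At most 1 junction of their own was found in 38 of those, or 40.9% of the 93, beside 37.5% of the other genes. Of the 40 without such bases, 30 exceeded 50% in both libraries of the second table, against 17 of 31 with 1 to 99 bases and 11 of 22 with 100 or more. By expected counts the group without such bases was the lowest instead, with 19 of 40, against 26 of 31 and 17 of 22. The closest coding transcript ran more than 100 bases further downstream than the decay transcript in 58 members, or 62.4%. It ended more than 100 bases before it in 14, or 15.1%. In the other genes these shares were 63.8% and 10.8%. What the 3' ends contribute to the split was not tested.

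Length moved the shares between TPM and counts. The leading decay transcript had a median of 2024 bases against 2863 for the leading coding transcript, a median ratio of 0.679, and 0.534 in the other genes. In 53 members the ratio was under 0.8, and there the count share was the lower one in 46. Dennd1b, an exchange factor for RAB proteins, had decay shares of 74.8% and 73.6% by TPM and of 27.9% and 28.3% by counts. For Acer3, a ceramidase, they were 66.6% and 60.02% by TPM and 16.01% and 12.4% by counts. Ppp1cb went from 57.8% and 58.3% to 31.2% and 31.5%. In 16 members the ratio was over 1.2, and the count share was higher in 14 of them, as in Becn1, at 79.9% and 74.2%.

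The geometry that defines the decay class was present throughout, which the annotation type itself implies. The stop lay 50 bases or more before the last junction in all 97 members and in 99.4% of the other genes. The stop codon lay a median of 420 bases before the last junction, with a minimum of 51 in Cdkl3 and a maximum of 9212 in Rev3l, the catalytic subunit of DNA polymerase zeta. A median of 4 exons followed the stop, against 3 in the other genes. In 20 members, or 20.6%, 1 did, beside 24.5% of the other genes. The frames had a median length of 312 bases, or 31.0% of the gene's longest coding frame, against 22.6% in the other genes. In 71 of 93 members, or 76.3%, the frame was shorter than 50% of the longest, near the 78.6% of the other genes. For every member the leading decay frame ended in a stop codon with none inside it, and TGA closed 47 of them, TAA 32 and TAG 18. In 65 members the decay frame could be laid beside the closest coding frame from the same ATG. They shared a median of 69 codons, and the stop came a median of 12 codons after the first difference, within 30 codons in 49.

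**Figure D4:**
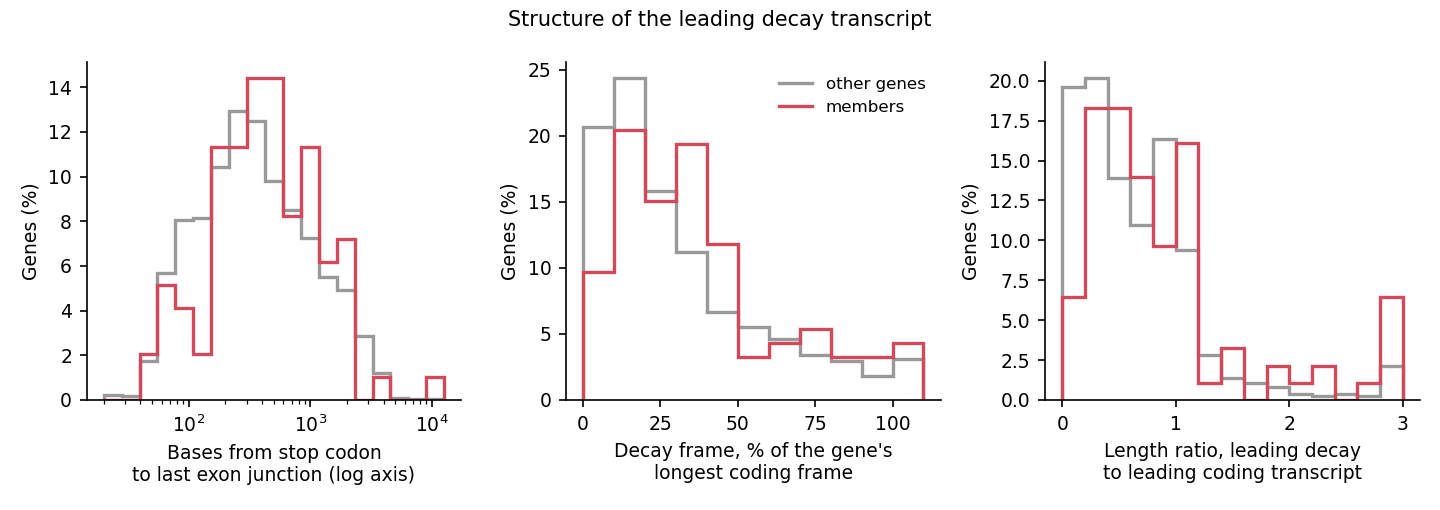
Percent of genes by bases from the stop codon to the last junction (left, log axis), frame length in percent of the gene's longest coding frame (middle) and length ratio of the leading decay to the leading coding transcript (right), with members in red and other genes in grey; values beyond an axis are counted in its end bin. The distributions overlap over most of their range, with the members' medians of 420 bases, 31.0% and 0.679 above the 322 bases, 22.6% and 0.534 of the other genes. Frames with no start found, 17.5% of members and 28.7% of other genes, are incomplete.

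Of the 83 members with a coding transcript and a stop of their own, the decay transcript gained an exon in 22, lost one in 29, used another splice site in 29 and kept an intron in 1, Bcas2. None of these was found in 5, and 3 members had more than 1 kind. In the other genes the shares were close, with 31.0% gaining an exon, against 26.5% of members, 31.5% losing one, against 34.9%, and 28.6% using another splice site, against 34.9%. The stop was shared with a coding transcript in 10 members, and in 7 of these the whole frame was, as in Atp2a2, Mobp, Prpf4b, Naa60, Cbx1, Tti2 and Becn1. The frame of Becn1-201 is that of a short coding transcript and covers 23.4% of the longest frame, while that of Prpf4b-208 is the full 3021 bases. Support level 1, the best grade, was given to the leading decay transcript of 53 members, or 54.6%, against 29.8% of the other genes, and level 5 to 23.

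Gene levels were close in the animals. The median log2 difference, replicate 2 minus replicate 1, was -0.03 over the members and -0.02 over the 14122 genes with a mean of 50 counts or more. In the members 43 of 97 were higher in replicate 2. Over all those genes 1.25% differed more than 2-fold, and over the 10773 of them at 5 TPM or more in both libraries 0.436% did. Of the 97 members 0 did, a count near that background. The largest difference was in Gm49325, at 5.03 and 9.26 TPM and a log2 difference of 0.77 from a mean of only 54.8 counts. Trpm4, a calcium-activated cation channel, followed at 0.70, and Rps6kb2, an S6 kinase, at 0.55. Gm42715 at -0.36, Cbx1, a heterochromatin protein, at -0.35 and Rpe, an enzyme of the pentose phosphate pathway, at -0.30 were the lowest.

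Decay shares moved more than gene levels in a few members. The median absolute change between the animals was 3.11 points. By more than 10 points moved 11 members, where 11.3% of all 3083 genes did. Most of those genes have a share near 0 and little room to move, and among the 250 other genes at a mean share of 30% or more, 70 moved that far, with a median change of 6.33 points. The rule asked for over 50% in both libraries, so it limits such changes among the members, and nothing is read from these counts. Gm28036, a readthrough of Rbm12 and its neighbours, went from 90.2% to 59.1%, but only from 99.3% to 96.1% by expected counts. Its leading coding transcript has 411 bases and its leading decay transcript 5505. Trmt11 went from 88.4% to 66.7%, Zfand4 from 74.9% to 53.5% and Zfp938 from 74.0% to 57.0%. Slco1c1, a thyroid hormone transporter of brain vessels, went from 53.8% to 69.3%. Of the 11 changes, 4 were rises in replicate 2. Credibility intervals of the leading decay transcript did not overlap between animals in 2 members, beside 3.28% of the 3083 genes. They were Rnf114, at 28.0 and 23.3 TPM, and Rps6kb2, at 1.88 and 5.26 TPM, and neither is among the 11.

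**Figure D5:**
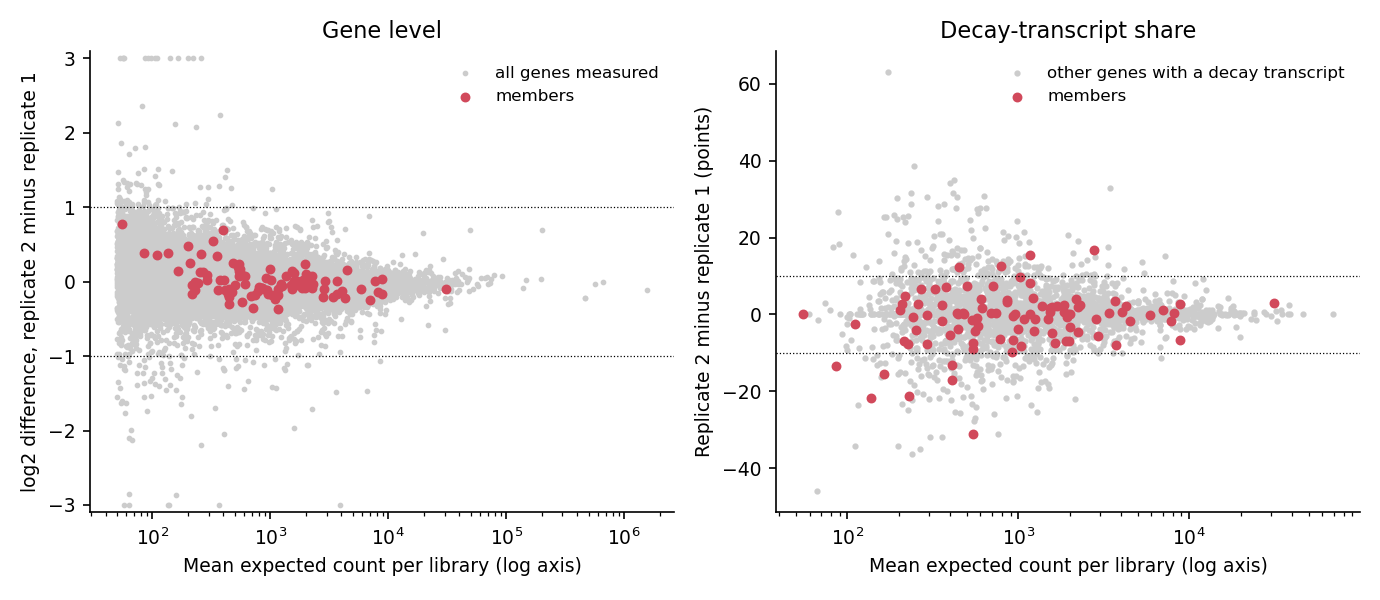
Replicate 2 minus replicate 1 against the mean expected count (log axis), for gene level in log2 (left, 20 grey genes beyond 3 drawn at 3, dotted lines at 2-fold) and for decay share in points (right, dotted lines at 10 points), with members in red. All members lie within 2-fold, between -0.36 and 0.77, and 11 lie beyond 10 points.

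The machinery of the pathway was expressed. Of 36 listed genes, 33 reached 5 TPM in both libraries, with a median of 20.5 TPM over the list. Upf1 stood at 28.5 ± 0.969 TPM (SD, n = 2), the kinase Smg1 at 30.2 ± 1.53, the nuclease Smg6 at 14.8 ± 0.0919 and Eif4a3, the anchor of the exon junction complex, at 39.97 ± 0.0283. A decay transcript is annotated in 8 of the 36, and 0 of these were members. Magohb, 1 of the 8, was under 5 TPM in replicate 2, so the rule could not choose it. Over all 3083 genes 3.15% were members, so for so few genes a count of 0 is near the background. Smg5 had decay shares of 6.16% and 7.71%, Smg1 of 0% in both, and Gspt2, a release factor, 12.98% and 12.6%. Magohb had the highest single value, 28.1% in replicate 1, but 0% in replicate 2, at 5.38 and 4.49 TPM. Between the animals 0 of 35 differed more than 2-fold, a count near the 1.25% over all genes measured, with a median log2 difference of -0.07.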

How the data were processed

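Reads were mapped to mm10 with GENCODE M21, as the deposited readme states; no source used here names the aligner or the estimation tools. For each library there was a gene and a transcript table in the RSEM layout (the first table) and a transcript table in the kallisto layout (the second table). Expected counts in the deposited first table are the authors' estimated counts, in which a read that fits several transcripts is shared out. TPM values are scaled by the authors over all features. Per the file headers, the first table also gives the percent of gene TPM per transcript. Credibility bounds are deposited scores whose level is not stated.

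Counts were rounded and scaled with TMM factors (edgeR 4.0.16, R 4.3.3) to log2 CPM with a prior count of 1, where the mean count was 50 or more; no count model was fitted. Structures came from the GENCODE M21 annotation. Structure and difference scripts were tested on simulated data. Members, lists and named genes were chosen with earlier results of these data known. Named genes are the 20 with the highest TPM, the extremes of the differences between animals and tables, and up to 5 of each symbol class; further structural examples were picked after their values were seen. The alternatives varied scaling, limits, tables and libraries. With 2 libraries, means carry little precision. Hybrid reads were placed on the reference genome, so CAST/EiJ reads may be lost. Alleles were not analysed here. A few items are not reported here.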

Additional observations from a re-analysis of the deposited data

How the results depend on the processing

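No paired analysis was possible because there is 1 group. The number of genes passing the rule was 97, 162 at a limit of 40%, 54 at 60% and 19 at 75%; it was 133 at 1 TPM, 74 at 10 TPM, 88 by expected counts and 96 by the second table, and 128 to 129 with either library alone. The median decay share of 64.1% was 62.4% by expected counts and 57.6% by the second table, and 63.5% to 64.9% with 1 library left out. The median gene level of 22.6 TPM became 19.0 TPM with gene sums of the second table and 21.8 to 22.6 TPM with 1 library. That of the decay machinery became 16.9 TPM, and 20.1 to 20.5 TPM with 1 library. Total counts turned the members' median log2 difference to 0.00903 and spike-in counts to 0.24, while they moved the median of all genes to 0.02 and 0.25. Gm49325 then passed 2-fold with spike-in counts, as it did in the second table, 1 member in each case. Shares moved more than 10 points in 22 members by the second table, 13 by expected counts and 11 as reported; 3 moved more than 20. The length ratio of 0.679 was 0.754 with the leading transcripts of the second table and 0.547 against the longest coding transcript. Depth limits the low members most, with 37.6 counts in the shallowest library value.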

Other observations

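Outside the 97 genes, 34 others exceeded a decay share of 50% in both libraries of the second table alone. The most abundant was Hras, a small GTPase of growth factor signalling, at 131 and 126 TPM, with 40.2% and 38.5% by the first table and 58.7% and 57.3% by the second. Rpl27a, a protein of the large ribosomal subunit, had 7.62% and 26.4% by the first table and 79.4% and 80.3% by the second. Tbca, a tubulin folding cofactor, had 0% in both libraries by the first table and 64.0% and 67.6% by the second. Bnip1, a SNARE of the endoplasmic reticulum, had 0% in both by the first and 90.4% and 83.7% by the second. Kcna6, a voltage-gated potassium channel, had 0.12% and 32.9% by the first table and 78.9% and 91.2% by the second. Gabra2, a subunit of the GABA-A receptor, lay just under the limit by the first table at 46.7% and 48.1%, with 55.5% and 59.9% by the second. These genes were named after their values were seen, and the source of the gap between the tables was not tested.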
